A study of Homo sapiens with 6 samples.

Results

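The genes described here are 10 enzymes and partner proteins that write, read or remove the marks of silent chromatin, namely DNMT1, UHRF1, DNMT3A, DNMT3B, TET1, TET2, TET3, TRIM28, SETDB1 and EZH2. They were chosen by name, with earlier results of these data known, and each was found once among the 62492 genes listed for every library. All 10 passed the filter on low counts, with at least 238 reads in every library. RNA-seq was performed in HCT116 cells, a human colorectal cancer line labelled as wild type, which were transfected with a control siRNA (siControl) or with an siRNA against NONO (siNONO), each at 20 nM with Lipofectamine RNAiMAX. NONO is an RNA- and DNA-binding protein of paraspeckles. PolyA RNA was sequenced with a stranded kit in 3 libraries per group, described as biological replicates and labelled Sets 1 to 3. A single siNONO duplex was used, so the loss of NONO and any other effect of that duplex cannot be told apart.

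DNA methylation is copied after replication by DNMT1, which UHRF1 brings to hemimethylated DNA, while DNMT3A and DNMT3B place new methyl groups. The TET enzymes oxidize 5-methylcytosine and so start its removal. SETDB1, brought to chromatin by TRIM28 (KAP1) and KRAB zinc finger proteins, trimethylates H3K9 at retroelements, and EZH2 is the H3K27 methyltransferase of Polycomb complex 2. Maintenance of methylation is tied to DNA replication, and the genes for these factors are often highest in dividing cells.

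Total estimated counts per library ran from 21765393 to 32659002. In the libraries labelled siNONO, NONO mRNA stood at 89.5, 95.5 and 100.4 CPM (read counts scaled to library size with TMM factors) against 496, 495 and 516 in siControl, a log2 fold change of -2.40 ± 0.03 (SE, n = 3 per group). Epithelial markers such as EPCAM (224 to 293 TPM over all libraries, a level scaled for gene length and library size) were high. The differentiated enterocyte marker VIL1 stayed at or below 0.17 TPM. Of the markers of other cells, PTPRC, CD3E, COL1A2, DCN and CDH5 had at most 2 reads in all libraries together, whereas COL1A1 was at 16.2 to 19.0 TPM, and CD68 was at 2.07 to 5.52 TPM in siControl and 6.16 to 6.31 TPM in siNONO. Of 17000 genes tested, 46.6% differed between siNONO and siControl at an adjusted p of at most 0.05 (edgeR quasi-likelihood test with the Set as a block, Benjamini-Hochberg adjustment, used for every adjusted p on counts below). The lower genes made up 23.4% and the higher genes 23.2% (3985 and 3939 genes, against 3614 and 1643 by limma on log2(TPM + 1)), and the median log2 fold change of all genes was -0.005.

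Of the 10 genes, 7 were lower in siNONO, DNMT3A alone was higher, and SETDB1 and TRIM28 did not pass the test. The median log2 fold change of the 10 was -0.36. The 3 siControl and 3 siNONO values of CPM did not overlap for 9 of the 10 genes, which was also the case for 47.8% of all genes tested. The log2 ratio of siNONO to siControl had the same sign in all 3 Sets for each of the 10 genes, although that of SETDB1 in Set 2 was only 0.001. How many of all genes tested had 1 sign in all Sets was not determined.

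**Figure D1:**
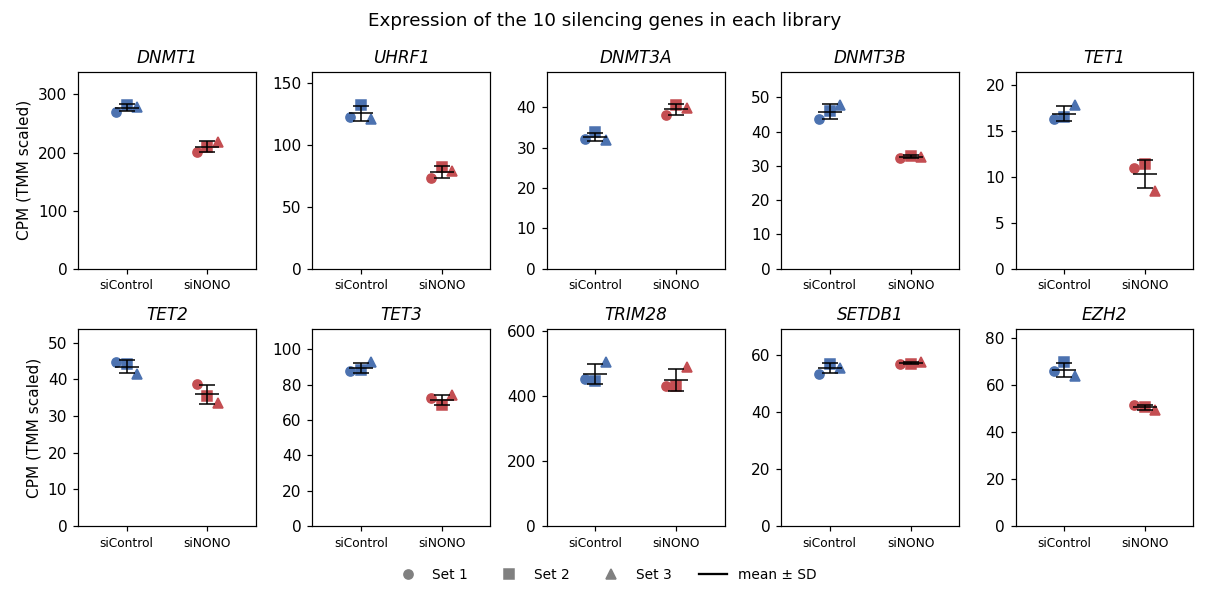
TMM-scaled CPM of each gene in the 3 siControl (blue) and 3 siNONO (red) libraries, with 1 symbol per Set and bars for the mean ± SD (n = 3); every axis starts at 0. The siNONO values lie below the siControl values for 7 genes and above them for DNMT3A and, narrowly, SETDB1, while those of TRIM28 overlap.

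Sequences at the start sites of 3 of the lower genes are shown first because the maintenance and Polycomb genes are known targets of E2F factors, which switch on genes for DNA replication. Promoter windows of 300 bases, 250 before and 50 after each start, were had from RefSeq (GRCh38.p14) for 9 of the 10 genes, in 22 windows in all. An E2F-type motif, spelled as TTTCCCGC, TTTCGCGC, TTTGCCGC or TTTGGCGC on either strand, was found in 4 of the 22 windows, belonging to UHRF1, DNMT1 and EZH2. No window of the other lower genes, DNMT3B, TET1, TET2 and TET3, held the motif, nor did any of DNMT3A and SETDB1. Of all 35116 windows of the table, 3.31% held the motif. The 4 windows are rich in CpG, with 30 to 46 CpG against a median of 14 for all windows, and of the 7872 windows with at least 30 CpG, 5.92% held the motif. Each line below gives 30 bases on the gene's own strand, 5′ to 3′, with the motif or its reverse complement in capitals.
DNMT1, chr19:10194937-10194966, minus strand: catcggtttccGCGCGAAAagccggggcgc
UHRF1, chr19:4909476-4909505, plus strand: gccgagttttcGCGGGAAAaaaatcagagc
UHRF1, chr19:4909973-4910002, plus strand: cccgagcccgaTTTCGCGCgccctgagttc
EZH2, chr7:148884272-148884301, minus strand: gggctgccgcgTTTGGCGCtcggtccggtc

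Counted by gene, 3 of 9 had the motif in at least 1 window, against 6.49% of the 11669 tested genes with a window. This share was matched neither for CpG nor for the number of windows per gene. The 9 genes had 22 windows, while the table had 35116 windows over 27305 genes, and more windows give more chances of a match. In a list of 43 S-phase genes, which includes UHRF1, the motif was present in 19 of the 32 with a window. A cell cycle homology element, spelled TTTGAA, was found for DNMT3A and TET2 only, and it occurred in 15.2% of all windows. These are matches of letters in a fixed window, and binding was not measured. Whether E2F factors have a part in the lower levels in siNONO was not tested.

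DNMT1 (chr19:10244018-10341962, GRCh37, minus strand), the maintenance methyltransferase, was the most abundant of the DNA methyltransferases. It stood at 270.0, 282 and 279 CPM in siControl Sets 1 to 3 and at 200.2, 210.3 and 219 CPM in siNONO. Every siNONO library was below every siControl library. The level fell by 24.3%, with a log2 fold change of -0.40 ± 0.03 (SE, n = 3 per group, adjusted p = 4.23e-07). S1PR2 overlaps DNMT1 over 83 bases of exon on the same strand, but had a mean of only 244 reads in siControl and 306 in siNONO.

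UHRF1 (chr19:4903092-4962165, plus strand), which recognizes hemimethylated CpG and recruits DNMT1, had values of 123, 133 and 122 CPM in siControl and 73.1, 82.1 and 79.3 CPM in siNONO. Both groups were clearly apart in each Set. The log2 fold change was -0.69 ± 0.04 (adjusted p = 1.98e-08), a decrease of 37.9%, and only 4.47% of all tested genes had a lower one. Within a library the ratio of UHRF1 to DNMT1 reads was 0.456, 0.470 and 0.436 in siControl and 0.365, 0.390 and 0.362 in siNONO, with no overlap. An exact permutation test of 3 against 3 libraries cannot give a two-sided p below 0.1, and none was run for this ratio.

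The other factors of the methylation machinery went both ways, with more of them lower than higher. Of 22 listed partners, 21 were tested, of which 10 were lower, 5 higher and 6 not called, with a median log2 fold change of -0.08. These are 47.6% lower and 23.8% higher, against 23.4% and 23.2% of all genes tested. The lower ones were led by LIG1, the ligase of Okazaki fragments that UHRF1 also binds (63.4 ± 2.9 CPM in siControl and 45.0 ± 3.1 in siNONO, SD, log2 fold change -0.50 ± 0.04, adjusted p = 9.33e-07), HELLS, a remodeller needed for methylation of repeats (-0.44 ± 0.04, adjusted p = 8.0e-07), and CDCA7L (-0.33 ± 0.04, adjusted p = 3.73e-05). CDCA7, which activates HELLS, had a log2 fold change of -0.08 ± 0.04 and did not pass the test (adjusted p = 0.147).

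Among the higher partners, AHCY, which clears S-adenosylhomocysteine, the inhibitory product of methyltransferases, rose from 344 ± 12 to 433 ± 19 CPM (0.33 ± 0.03, adjusted p = 3.35e-06). The methyl-CpG binding genes ZBTB33 (Kaiso, 0.26 ± 0.05, adjusted p = 0.00085) and MBD1 (0.18 ± 0.04, adjusted p = 0.00366) rose too. The remaining 2 were TDG and MAT2A, at 0.11 and 0.08, named after their values were seen. The number of higher partners was 3 without the Set as a block, 2 without siNONO Set 1, 3 without siControl Set 1 or either Set 2 library, and 1 on TPM. HELLS, CDCA7 and PCNA are also in the S-phase list; without them 8 of 18 partners were lower and 5 higher, with a median of -0.04.

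DNMT3A and DNMT3B, the de novo methyltransferases, moved in opposite directions on counts. DNMT3B (chr20:31350191-31397165, plus strand) had 43.6, 45.9 and 47.9 CPM in siControl and 32.3, 33.04 and 32.7 CPM in siNONO. All siNONO values fell within a narrow band below the controls, and the log2 fold change was -0.49 ± 0.05 (adjusted p = 3.66e-06), a decrease of 28.6%.

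DNMT3A (chr2:25450724-25565459, minus strand) had 32.3, 33.9 and 31.9 CPM in siControl and 38.1, 40.7 and 39.8 CPM in siNONO. It was higher in each Set, and the log2 fold change was 0.27 ± 0.05 (adjusted p = 0.00048). The rise was not called on TPM, where limma on log2(TPM + 1) gave 0.06 ± 0.12 (adjusted p = 0.710). The TPM was 8.17, 7.41 and 8.70 in siControl and 7.48, 9.73 and 8.41 in siNONO, so that the groups overlapped on that scale. TPM depends on the mean transcript length that RSEM assigned to the gene, and for DNMT3A this ran from 5413 to 7029 bases between libraries.

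The ratio of both enzymes, which follows from their levels and adds no separate evidence, differed between the groups on either scale, with no overlap and no test. On TPM the groups overlapped for DNMT3A but not for DNMT3B. The ratio of DNMT3A to DNMT3B reads was 0.740, 0.738 and 0.666 in siControl and 1.18, 1.23 and 1.22 in siNONO. Per length, as a ratio of TPM, it was 0.515, 0.459 and 0.504 in siControl and 0.668, 0.883 and 0.756 in siNONO. DNMT3B therefore remained the more abundant transcript of the pair per length in every library, by a smaller margin in siNONO. The catalytically inactive cofactor DNMT3L had 0 reads in all libraries.

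**Figure D2:**
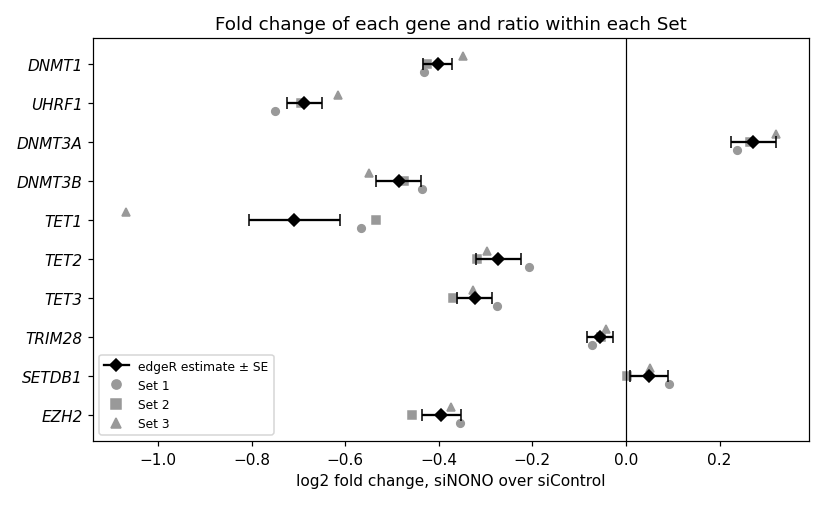
Log2 fold change of siNONO over siControl for each gene from edgeR (black diamonds, bars ± SE, n = 3 per group), with the log2 ratio of CPM within each Set in grey. UHRF1 and TET1 had the lowest estimates, at -0.69 and -0.71, and the Set 3 ratio of TET1 lay apart at -1.07, while DNMT3A was at 0.27.

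All of the TET genes, the 5-methylcytosine dioxygenases, were lower in siNONO. TET1 (chr10:70320094-70454244, plus strand), the least abundant of the 10 genes, had 16.3, 16.5 and 17.9 CPM in siControl and 11.01, 11.4 and 8.51 CPM in siNONO. The groups did not overlap, and the lowest value was that of siNONO Set 3. The log2 fold change was -0.71 ± 0.10 (adjusted p = 6.44e-05), with ratios within Sets 1 to 3 of -0.57, -0.53 and -1.07. Leaving out single libraries gave -0.80 to -0.55, all called.

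TET2 (chr4:106067032-106200973, plus strand) had 44.7, 44.3 and 41.4 CPM in siControl and 38.7, 35.5 and 33.7 CPM in siNONO. These groups were close but did not overlap, and Set 3 was the lowest of each. The log2 fold change was -0.27 ± 0.05 (adjusted p = 0.000438). On log2(TPM + 1) it was of like size but missed the threshold (-0.28 ± 0.09, adjusted p = 0.0689).

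TET3 (chr2:74212037-74335303, plus strand) had 87.7, 88.4 and 92.9 CPM in siControl and 72.4, 68.5 and 74.0 CPM in siNONO. It was lower in each Set, with a log2 fold change of -0.32 ± 0.04 (adjusted p = 1.35e-05). A long noncoding RNA shares 364 bases of exon with TET3 on the same strand and had a mean of 20.7 reads in siControl and 12.3 in siNONO.

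Summed, the TPM of the TET genes was 20.4, 20.2 and 21.0 in siControl and 16.2, 14.6 and 15.4 in siNONO. TET3 made up 55.6% ± 1.2 of this sum in siControl and 56.6% ± 3.1 in siNONO (SD, n = 3), a difference smaller than the spread between replicates. Genes for writers and for erasers of DNA methylation were therefore both among the lower ones, while DNMT3A was higher on counts.

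TRIM28 and SETDB1, which act together in H3K9 trimethylation, did not pass the test. TRIM28 (chr19:59055431-59062089, plus strand), by far the most abundant of the 10 transcripts, had 454, 448 and 505 CPM in siControl and 432, 431 and 490 CPM in siNONO. Set 3 was the highest of each group, and the groups overlapped. The log2 fold change was -0.06 ± 0.03 (adjusted p = 0.117), with a 95% interval of -0.12 to 0.004. The call depended on the scale and on 1 library: TRIM28 was called lower on log2(TPM + 1), at -0.23 ± 0.05 (adjusted p = 0.0253), and on counts without siNONO Set 3, at -0.06 ± 0.02 (adjusted p = 0.0394).

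SETDB1 (chr1:150898739-150937220, plus strand) had 53.5, 56.9 and 55.5 CPM in siControl and 57.0, 57.0 and 57.5 CPM in siNONO. The siNONO values lay just above the highest control value. The log2 fold change was 0.05 ± 0.04 (adjusted p = 0.363), with a 95% interval of -0.04 to 0.14. On log2(TPM + 1) its sign turned, at -0.13 ± 0.05 (adjusted p = 0.114). CERS2 overlaps SETDB1 over 290 bases of exon on the opposite strand and had a mean of 4347 reads in siControl and 5584 in siNONO, and whether the counting used strand was not given in the sources used here.

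Other genes of H3K9 methylation were mostly lower. Of all genes tested, 23.4% were lower and 23.2% higher. Of 18 tested genes for H3K9 methyltransferases, HP1 proteins and the HUSH complex, 11 (61.1%) were lower and 1 (5.56%) was higher, with a median log2 fold change of -0.20. MPHOSPH8, the H3K9me3 reader of HUSH, was the lowest of them (55.1 ± 4.8 CPM in siControl and 37.3 ± 2.4 in siNONO, -0.56 ± 0.07, adjusted p = 1.58e-05). Both H3K9 methyltransferases of pericentromeric chromatin, SUV39H1 (-0.47 ± 0.06, adjusted p = 5.37e-05) and SUV39H2 (-0.31 ± 0.05, adjusted p = 0.000423), were lower as well.

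The genes of the HP1 proteins, which bind methylated H3K9, were also in the lower group: CBX5 was at -0.28, CBX3 at -0.22 and CBX1 at -0.21, named after their values were seen. TASOR2 was the higher gene (0.18 ± 0.03, adjusted p = 0.000526), but was not called on log2(TPM + 1) (adjusted p = 0.105). ATF7IP, the partner that stabilizes SETDB1, was at -0.20 and lower.

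KRAB zinc finger proteins bring TRIM28 to DNA, and many of them carry ZNF names. Of 477 ZNF-named genes, 355 were tested, of which 98 were lower and 31 higher, with a median log2 fold change of -0.08. These are 27.6% lower and 8.73% higher, against 23.4% and 23.2% of all genes, and DESeq2 called 55 lower and 17 higher, and limma on TPM 70 and 11. ZNF395 was the lowest (72.8 ± 2.0 CPM in siControl and 26.8 ± 1.4 in siNONO, -1.44 ± 0.04, adjusted p = 1.50e-10), followed by ZNF100 (-1.18 ± 0.07) and ZNF738 (-1.08 ± 0.15). ZNF155 (0.70 ± 0.21), ZNF106 (0.63 ± 0.04) and ZNF593 (0.62 ± 0.09) led the higher ones. The ZNF names also cover genes without a KRAB domain, which were not set apart.

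EZH2 (chr7:148504349-148581413, minus strand), the catalytic subunit of Polycomb complex 2, had 65.7, 69.7 and 64.0 CPM in siControl and 51.4, 50.8 and 49.4 CPM in siNONO. The siNONO libraries lay well below the controls. The log2 fold change was -0.39 ± 0.04 (adjusted p = 6.53e-06), a decrease of 23.9%. Its paralog EZH1 had a log2 fold change of -0.04 ± 0.05 (adjusted p = 0.543).

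Core and accessory subunits of the same complex went both ways. Of 12 tested, 5 were lower, 4 higher and 3 not called, with a median of -0.07. These are 41.7% lower and 33.3% higher, against 23.4% and 23.2% of all genes tested. SUZ12, a core subunit, fell with EZH2 (113 ± 4 CPM in siControl and 83.6 ± 9.7 in siNONO, -0.43 ± 0.04, adjusted p = 5.03e-06). PHF19 (-0.46 ± 0.05) and LCOR (-0.30 ± 0.04) of the same list fell too. EED, another core subunit, rose (18.4 ± 0.3 to 23.2 ± 0.7 CPM, 0.34 ± 0.06, adjusted p = 0.000452). JARID2, which helps to bring the complex to its targets, was the highest (42.9 ± 0.6 to 62.5 ± 2.3 CPM, 0.54 ± 0.04, adjusted p = 6.77e-07), and RBBP4 was at 0.19 ± 0.04. PHF1, RBBP7 and EPOP were the others called, at -0.15, -0.10 and 0.14, named after their values were seen. Without the Set as a block, 3 were lower and 3 higher, and 3 were lower without any 1 library of Sets 1 and 2. On TPM, 2 were higher.

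A list of Polycomb complex 1, which includes readers of the mark of EZH2, had 10 of 21 genes lower and 5 higher, with a median of -0.10. These are 47.6% lower and 23.8% higher, against 23.4% and 23.2% of all genes tested. The list also held BAP1 (-0.38) and ASXL1 (-0.37), which form a deubiquitinase opposing the complex. Without BAP1 and ASXL1, 8 of 19 were lower and 5 higher, with a median of -0.05. The chromodomain readers differed from each other: CBX2 fell (-0.53 ± 0.04, adjusted p = 9.67e-07), and CBX7 rose (0.42 ± 0.06, adjusted p = 0.00013). PHC2 was lower (-0.42 ± 0.03), and PCGF1 (0.33 ± 0.07) and PCGF5 (0.19 ± 0.05) were higher. RING1 and PCGF2 completed the higher ones, at 0.13 and 0.18, named after their values were seen. The number of higher genes was 3 without the Set as a block, 2 without either Set 2 library, 8 without either Set 3 library and 1 on TPM.

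Of 14 genes for histone deacetylases and the NuRD, Sin3 and CoREST complexes, 6 were lower and 2 higher, with a median of -0.06. These are 42.9% lower and 14.3% higher, against 23.4% and 23.2% of all genes tested. HDAC2 (221 ± 8 to 147 ± 8 CPM, -0.59 ± 0.03, adjusted p = 1.53e-08) and HDAC3 (44.2 ± 1.5 to 82.4 ± 2.5 CPM, 0.90 ± 0.04, adjusted p = 2.81e-09) moved in opposite directions. MTA2 (-0.62 ± 0.03) and SIN3A (-0.40 ± 0.04) were lower, and MTA3 was at 0.13 ± 0.05 (adjusted p = 0.0432). The call of MTA3 was lost in 9 of 15 alternatives, among them without the Set as a block and without any 1 library of Sets 1 and 3, and its sign turned on log2(TPM + 1) (-0.12 ± 0.06, adjusted p = 0.148). Of 11 demethylases of H3K27 and H3K9, 6 were lower, or 3 without the Set as a block or without any 1 library of Sets 1 and 2, and 1 was higher. With the main settings, 54.5% of the demethylases were lower and 9.09% higher. KDM4D was the lowest (-0.73 ± 0.16), followed by KDM3A (-0.37 ± 0.04) and KDM4A (-0.24 ± 0.04), and KDM7A was the higher one (0.74 ± 0.05, adjusted p = 9.05e-08).

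**Figure D3:**
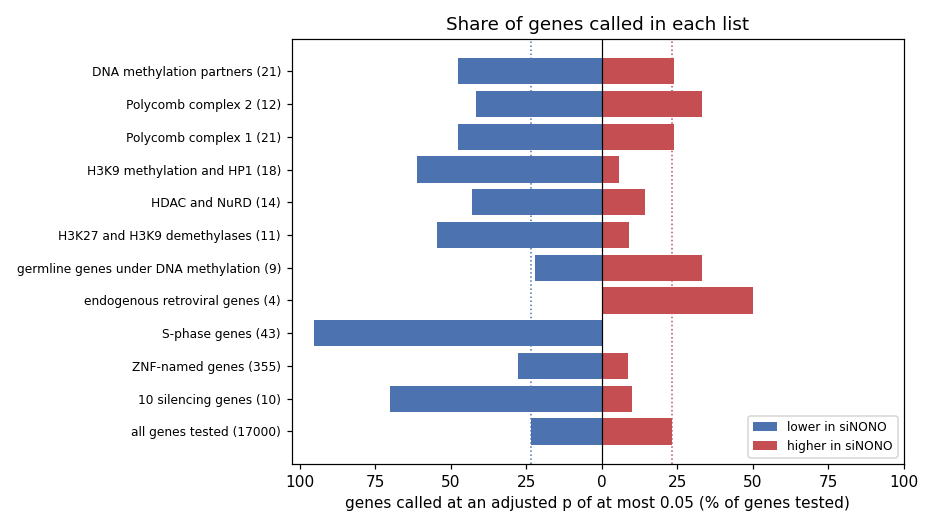
Share of genes called lower (left, blue) and higher (right, red) in siNONO in each list, with the number of genes tested in brackets and the shares of all 17000 genes as dotted lines at 23.4% and 23.2%. The S-phase list had 95.3% of its genes lower and none higher, and the H3K9 list had 61.1% lower. All lists were chosen with earlier results of these data known.

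Because the genes of maintenance methylation are tied to replication, a list of 43 S-phase genes was set beside the 10 genes. This list, too, was chosen with earlier results of these data known, so its counts are no independent check. Of the 43 genes, 41 were lower and 0 higher by edgeR, with a median log2 fold change of -0.47, and DESeq2 gave 39 lower and 0 higher. At an unadjusted p under 0.05, too, 0 were higher by either tool. UHRF1 belongs to this list; without it, 40 of 42 were lower, with a median of -0.46. CCNE2, the cyclin of S-phase entry, was the lowest (10.3 ± 1.4 CPM in siControl and 4.82 ± 0.17 in siNONO, -1.09 ± 0.10, adjusted p = 2.24e-06), followed by EXO1 (-0.99 ± 0.06) and CLSPN (-0.93 ± 0.05).

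The fall of UHRF1 was passed by 8 S-phase genes, while DNMT1, DNMT3B and EZH2 lay near the middle of the list. Fewer cells in S phase and less RNA of these genes per cell cannot be told apart in bulk samples, and the part of the cell cycle in the lower levels of the silencing genes was not tested.

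**Figure D4:**
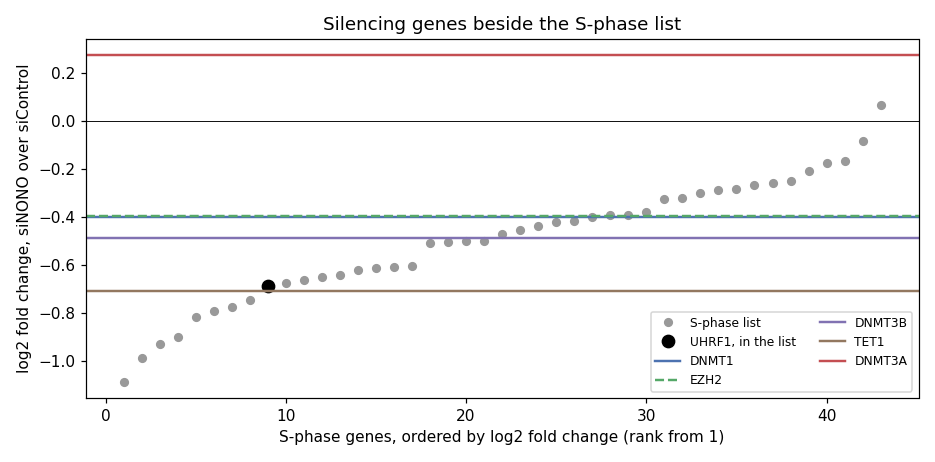
Log2 fold change of each S-phase gene, ordered from lowest to highest (grey, UHRF1 in black), with horizontal lines for the other silencing genes named in the legend. DNMT1 at -0.40 and EZH2 at -0.39 (dashed) nearly coincide, and the line of DNMT3A at 0.27 lies above all of the S-phase genes.

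Per length, the siControl levels fell in the order TRIM28 (750 ± 82 TPM, SD, n = 3), DNMT1 (119 ± 1.3), UHRF1 (50.4 ± 1.3), EZH2 (39.4 ± 2.0), SETDB1 (31.7 ± 1.6), DNMT3B (16.4 ± 0.7), TET3 (11.4 ± 0.5), DNMT3A (8.09 ± 0.65), TET2 (6.59 ± 0.24) and TET1 (2.53 ± 0.15). No 2 neighbours in this order overlapped over the siControl libraries. In siNONO the order was less distinct: UHRF1 (29.8 ± 1.6 TPM), SETDB1 (28.8 ± 1.2) and EZH2 (28.7 ± 1.5) overlapped, as did TET3 (8.72 ± 0.63) and DNMT3A (8.54 ± 1.13). The other neighbours stayed apart, with TRIM28 at 638 ± 19, DNMT1 at 83.3 ± 7.7, DNMT3B at 11.1 ± 0.1, TET2 at 5.25 ± 0.48 and TET1 at 1.45 ± 0.21 TPM.

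**Figure D5:**
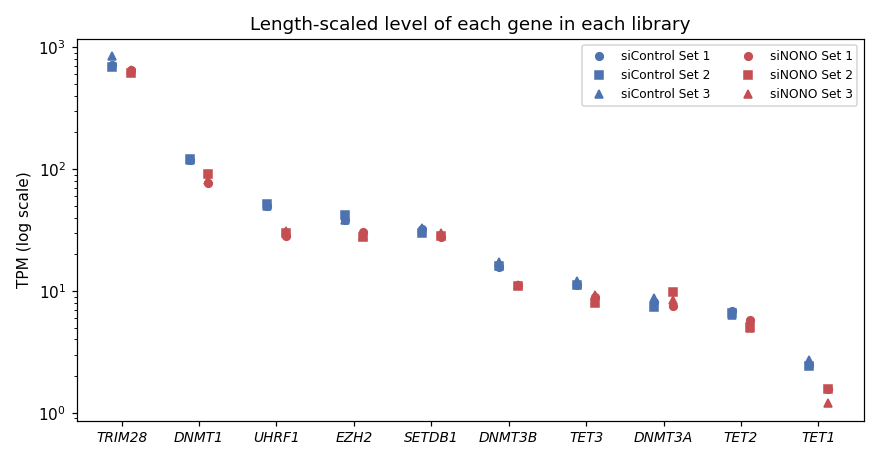
TPM of each gene in each library on a log axis, ordered by the siControl mean, with 1 symbol per Set. The genes span from TRIM28 at 690 to 843 TPM to TET1 at 2.42 to 2.70 TPM in siControl (blue), and UHRF1, EZH2 and SETDB1 come to lie at one level in siNONO (red).

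The mean transcript length of a gene, which RSEM weights by the abundance of its transcripts, was compared as a sign of a change in transcript use. At an adjusted p of at most 0.05, limma on log2 length called 0% of 14129 genes, with 1213 at an unadjusted p under 0.05. Hence none of the 9 silencing genes tested was called. With 3 libraries per group, the lack of a call does not exclude a shift in transcript use. The difference was smallest for UHRF1 and DNMT3B, at -0.01 on the log2 scale, and reached 0.09 ± 0.06 for SETDB1 and 0.11 ± 0.13 for DNMT3A. TET1 had a length of 9612 bases in every library and could not be tested.

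Germline genes and retroviral genes are known to be held silent by these enzymes, and their RNA was therefore examined. Of 36 germline genes known to be under DNA methylation, 27 had too few reads to be tested (at most 53 over all libraries), and 12 of these had 0 reads in every library. Among the 9 tested, 2 were lower and 3 higher, with a median of 0.12. These are 22.2% lower and 33.3% higher, against 23.4% and 23.2% of all genes tested. TEX19, a germline gene with a methylation-sensitive promoter, had 509, 419 and 370 reads in siControl and 74, 81 and 82 in siNONO, a log2 fold change of -2.50 ± 0.10 (adjusted p = 9.33e-10). All siNONO libraries lay far below the controls.

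SSX1, named after its values were seen, was the other lower germline gene, with 20, 19 and 8 reads in siControl and 2, 2 and 1 in siNONO. The 3 higher ones were cancer-testis genes already expressed in siControl: MAGEB2 (139 ± 4 to 166 ± 2 CPM, 0.26 ± 0.03, adjusted p = 2.54e-05), MAGEA3 (0.24 ± 0.04) and MAGEA2 (0.16 ± 0.05). MAGEA3 and MAGEA2 have near-identical copies, so that their read counts are uncertain. Of 10 endogenous retroviral genes found, 4 were tested, of which 2 were higher, ERVK13-1 (12 ± 0.8 to 18.6 ± 0.5 CPM, 0.63 ± 0.07, adjusted p = 6.47e-06) and ERVMER34-1 (31.0 ± 1.2 to 38.7 ± 1.6 CPM, 0.32 ± 0.05, adjusted p = 0.000257), and 0 lower by edgeR or DESeq2, also at an unadjusted p under 0.05. On log2(TPM + 1), ERVMER34-1 was not called (0.17 ± 0.07, adjusted p = 0.119). Higher genes made up 50% of the 4 retroviral genes tested, against 23.2% of all genes, and 4 are too few to set beside that share. The 6 untested retroviral genes had at most 55 reads over all libraries. DNA methylation and histone marks themselves were not measured.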

How the data were processed

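PolyA RNA of 3 siControl and 3 siNONO libraries was analysed. After trimming with sickle, the authors used STAR and a GENCODE transcriptome on GRCh37 for alignment and RSEM (version 1.3.1) for counting, and deposited 1 table per library. The deposited expected counts (estimated reads per gene) are not normalized. The deposited TPM and FPKM values are scaled by the authors for length and library size, and FPKM was not used further. Gene and effective lengths are those RSEM deposited.

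Counts were rounded and fitted with edgeR (version 4.0.16, in the form of its earlier release named in the study) with TMM, filterByExpr and the Set as a block, since the study adjusted for batch and the Set is the only such label. Benjamini-Hochberg adjustment was over all 17000 genes tested, with a threshold of 0.05. Lengths were fitted with limma (version 3.58.1). SE is of the log2 fold change. The biological coefficient of variation was 3.51%, and all replicate pairs differed by more than sampling noise. The Sets, numbered in the labels, were taken to pair the libraries. Deviations from the group means over 12114 genes correlated at 0.227, 0.181 and 0.380 within Sets 1 to 3, and at -0.270 to 0.129 between Sets. Between Sets 1 and 2 the values were 0.108 and 0.129, so that only Set 3 stood clearly apart. Deviations from a mean of 3 libraries sum to 0, which favours negative values between Sets. The main edgeR fit and the limma fit used for lengths were tested on simulated data. These had no Set effect and 1 level of noise for all genes, and the alternative fits were not simulated.

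Gene symbols, positions and overlaps came from GENCODE annotation lifted to GRCh37, and promoters from RefSeq (GRCh38.p14). No coordinates were converted. The 10 genes and all lists were chosen with earlier results of these data known. Besides the 10 genes and NONO, each list gave up to 3 highest and 3 lowest called genes, if the mean log2 CPM reached 1 and all 3 Sets had 1 direction. The values of 1 gene that this rule named are not reported here. Alternatives were DESeq2 (version 1.42.0), other scalings and filters, no block, limma on log2(TPM + 1) and log2(TPM + 0.1), and leaving out single libraries. The other experiments of the study were not analysed here.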

Additional observations from a re-analysis of the deposited data

How the results depend on the processing

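Of 150 values of the 10 genes under 15 alternatives, 141 had the same sign and the same call as with the main settings. DNMT1, UHRF1, DNMT3B, TET1, TET3 and EZH2 did so under all of them, with ranges of -0.52 to -0.38, -0.76 to -0.65, -0.56 to -0.45, -0.80 to -0.53, -0.39 to -0.29 and -0.45 to -0.35. The exceptions came from TPM and from 1 library. On log2(TPM + 1) and log2(TPM + 0.1), DNMT3A was at 0.065 and 0.071 (limma, adjusted p = 0.710 and 0.706) and TET2 at -0.28 and -0.32 (adjusted p = 0.0689 and 0.0678), neither called. SETDB1 turned to -0.13 and -0.14 (adjusted p = 0.114 and 0.113), and TRIM28 was called at -0.23 on both (adjusted p = 0.0253 and 0.0238), so 0 of the 10 genes were called higher by limma, nor was any at an unadjusted p under 0.05. The median of all genes on these scales was -0.07 and -0.09. Without single libraries TRIM28 ran from -0.063 to -0.044. It was called without siNONO Set 3. For all genes, DESeq2 called 2615 lower and 2612 higher, against 3985 and 3939 by edgeR, and the TPM fits called 1643 and 1638 higher. The cause of these changes was not tested. Without the replicate block, 7 genes of the 10 were lower and 1 higher as with it, and 3068 genes in all were lower and 3096 higher; limma on length then called 1 gene in place of 0. Of 300 counts of list genes under the alternatives, 51 moved by over 1.5 times. Without single libraries, the log2 length difference of DNMT1 (0.03) ran from -0.0083 to 0.101 and that of EZH2 (-0.03) from -0.0599 to 0.0052, so that both signs occurred. Counts alone limit TET1 most, with 238 reads in its lowest library, and 3 libraries per group limit every value.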
